A study of Mus musculus with 10 samples.

Results

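The 9 brush border digestive enzymes were followed through single-cell RNA-seq of organoids from the mouse intestine and of crypts from the colon. They were taken by name from a table of 23810 genes and 25204 kept cells, and all 9 were found in each organoid library (8 in each colon library, where Lct had no UMI). They comprise the disaccharidases Sis, Lct, Mgam and Treh, the phosphatase Alpi and the peptidases Anpep, Dpp4, Mep1a and Mep1b. UMI counts, in which each captured transcript molecule is counted once, were summed per library and deposited cell class, because cells of a library are not replicates.

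Organoids are epithelial cultures grown in a gel, here from crypts of the proximal small intestine of mice. The medium of ENR-organoids (3 libraries) held Noggin, R-Spondin 1 and EGF. That of Hyper-organoids (3 libraries) held 8 components, namely LDN193189, GSK-3 Inhibitor XV, Pexmetinib, valproic acid (VPA, a histone deacetylase inhibitor), EPZ6438 (which blocks the histone methyltransferase EZH2), EGF, R-Spondin 1 conditioned medium and FGF2. The -VE-organoids (2 libraries) lacked VPA and EPZ6438. All 3 media therefore contained EGF and R-Spondin 1. Replicates 1, 2 and 3 are grouped here as culture series 2, 6 and C, after the first character of the library codes. The labels themselves do not name a series. ENR-organoids were at passage 2, 7 and 3, -VE-organoids at passage 1 and 6, and Hyper-organoids at passage 1, 6 and 3. In series 2 and 6 the Hyper- and -VE-organoids had been ENR-organoids before, whereas both libraries of series C were started from primary crypts. The crypts of the colon were from normal mice in 1 library and, in the other, from mice given dextran sulfate sodium (DSS), a chemical that injures the colon. Mice for crypt isolation and organoids were 6 to 12 weeks old, and those of the colitis model were females of 8 weeks, according to the methods, which do not tie a strain or a number of animals to these libraries. Separate animals are thus not shown, and p-values measure the spread between these libraries only.

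Enterocytes absorb nutrients through a brush border of microvilli, and its membrane carries enzymes that finish digestion. Disaccharidases cleave dietary sugars, peptidases release amino acids and small peptides, and intestinal alkaline phosphatase removes phosphate groups, including those of bacterial lipopolysaccharide. Many of these genes are switched on as progenitors leave the crypt, and HNF4, CDX and GATA factors are known to act on their promoters.

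The promoters of 4 members are shown because their mRNAs behaved differently between the media: Sis and Treh with the largest falls, Alpi with a level that did not follow them in enterocytes, and Anpep with the opposite change outside enterocytes. The sequences are from RefSeq (GRCm38.p6, the same coordinates as mm10), 5′ to 3′, and cover 250 bases before and 50 after the start site. RefSeq windows were matched for 8 of the 9 members. Capitals mark exact matches, on either strand, to a CDX motif (TTTATG), an HNF4 motif (CAAAGTCCA) or a GATA motif (AGATAA).
Sis, chr3:72967814-72968113, minus strand: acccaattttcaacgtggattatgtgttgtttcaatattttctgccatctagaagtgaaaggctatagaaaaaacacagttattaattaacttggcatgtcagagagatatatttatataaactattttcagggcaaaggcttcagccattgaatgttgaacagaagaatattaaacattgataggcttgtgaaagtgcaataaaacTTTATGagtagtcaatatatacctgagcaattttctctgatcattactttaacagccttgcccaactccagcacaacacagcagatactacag
Treh, chr9:44672983-44673282, plus strand: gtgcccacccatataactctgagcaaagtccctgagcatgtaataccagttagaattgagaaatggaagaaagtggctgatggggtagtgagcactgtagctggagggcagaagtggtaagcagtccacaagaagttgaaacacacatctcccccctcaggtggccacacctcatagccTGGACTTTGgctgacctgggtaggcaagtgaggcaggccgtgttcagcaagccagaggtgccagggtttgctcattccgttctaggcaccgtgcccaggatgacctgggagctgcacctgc
Alpi, chr1:87101557-87101856, minus strand: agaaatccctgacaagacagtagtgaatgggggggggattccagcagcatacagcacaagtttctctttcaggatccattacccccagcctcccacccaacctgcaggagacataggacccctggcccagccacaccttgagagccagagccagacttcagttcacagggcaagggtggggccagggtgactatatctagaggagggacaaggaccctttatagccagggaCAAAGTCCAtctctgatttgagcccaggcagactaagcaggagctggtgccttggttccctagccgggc
Anpep, chr7:79848161-79848460, minus strand: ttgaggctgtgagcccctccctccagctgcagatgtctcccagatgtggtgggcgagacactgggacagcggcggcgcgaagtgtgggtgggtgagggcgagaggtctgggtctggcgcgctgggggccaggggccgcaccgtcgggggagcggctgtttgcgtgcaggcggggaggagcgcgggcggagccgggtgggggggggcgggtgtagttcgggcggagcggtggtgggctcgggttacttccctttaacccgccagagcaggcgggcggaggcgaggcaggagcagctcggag
The Sis window held the CDX motif at bases -43 to -38 from the start site. The HNF4 motif stood at -71 to -63 in Treh and at -19 to -11 in Alpi. This motif was present in 0.475% of 32851 promoter windows of the same length, the CDX motif in 11.9% and the GATA motif in 11.2%. The Sis window was poor in G and C (34% of bases, with 2.86% of windows lower), whereas the Anpep window was rich in them (72.3%, with 93.5% of windows lower) and held no match to these motifs. The Anpep window lies inside the annotated gene span (chr7:79821803-79861059), so a further start of this gene is annotated upstream of it. The remaining windows were not printed, but the CDX motif was also found in Lct and Mep1a, and the GATA motif in Lct, Mgam and Dpp4. A match describes letters only and does not show that a factor was bound.

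Organoid libraries held between 1983 and 4293 kept cells and between 89124015 and 170019527 UMIs, and the normal and DSS colon libraries held 1132 and 1933 cells and 19906845 and 32397122 UMIs. Of 25124 barcode sequences, 79 were seen in more than 1 library. Classes are those deposited with the data: enterocytes (EC), enterocyte progenitors (EP), transit amplifying (TA), stem (SC), goblet (GC), enteroendocrine (EE), Paneth and a few rarer cells. The enterocyte label was checked against Fabp1, Apoa1, Reg1 and Rbp2. Their summed level in EC was between 17449 and 19192 CPM (counts of a gene per 1000000 UMIs of the cells summed) in ENR-organoids, between 9123 and 10985 in -VE-organoids and 28454 and 16845 in the Hyper-organoid replicates 2 and 3. In EP it did not exceed 1352 CPM. Hyper-organoid replicate 3 enterocytes kept Fabp1 but were low in Apoa1 (114 CPM, against 1072 to 2036 in ENR-organoids) and Reg1 (43.1 CPM, against 1626 to 2062). Rbp2 was lower in both (2948 and 1477 CPM, against 3945 to 4381), so that the sum in Hyper-organoid EC was mostly Fabp1 (20300 and 15211 CPM, against 10370 to 11214). Classes were built by clustering on highly variable genes, which may include members, so that no class was tested against another for its level of a member.

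Absorptive cells were fewer in the Hyper medium. The ENR-organoid libraries had 214, 340 and 292 EC, the -VE-organoid libraries 149 and 244 and the Hyper-organoid libraries 7, 58 and 21, or 9.78% to 13.1%, 5.68% to 6.23% and 0.249% to 1.65% of cells. In the same order they had 486, 635 and 809 EP, then 105 and 184, then 3, 3 and 2. The ranges of the 3 groups did not overlap for EC. The question was therefore how much of each enzyme's difference between media came with these shares and how much was present within a class.

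In the sums over all kept cells, 5 of the 9 enzymes were called lower in Hyper- than in ENR-organoids (Sis, Mgam, Treh, Alpi and Mep1b) and none was called higher, while the other 3 peptidases were higher by less than 2-fold. Calls needed a fold of 2 or more and an adjusted p (Benjamini-Hochberg) below 0.05 in edgeR's quasi-likelihood test on all genes. Of 16037 genes tested, 4.75% were called lower and 18.2% higher. The median log2 fold change of the 9 members was -1.47, against -0.01 over all genes. Scaling by library totals alone moved the median of all genes by 0.119, and the changes below are relative to that median. In such sums, fewer cells of a type and less RNA per cell cannot be told apart.

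Sis encodes sucrase-isomaltase, which cleaves sucrose and starch ends and is a standard marker of mature absorptive cells. Its level was 149, 200 and 132 CPM in ENR-organoids, 26.2 and 11.9 CPM in -VE-organoids and 2.45, 6.90 and 3.20 CPM in Hyper-organoids. The 3 groups did not overlap. The log2 fold change was -5.38 ± 0.48 (SE; adjusted p = 4.6e-05) for Hyper- against ENR-organoids, -2.31 ± 0.46 (adjusted p = 0.0042) for Hyper- against -VE-organoids and -3.06 ± 0.50 (adjusted p = 0.013) for -VE- against ENR-organoids. Without -VE replicate 1 these last 2 values were -1.62 and -3.75, and without -VE replicate 2 the -VE- against ENR-organoid call was lost (-2.60, adjusted p = 0.10).

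Treh encodes trehalase, which splits trehalose, the sugar of fungi and insects. It stood at 9.57, 10.9 and 8.18 CPM in ENR-organoids, at 3.19 and 3.49 CPM in -VE-organoids and at 0.419, 0.359 and 0.188 CPM in Hyper-organoids. The groups again did not overlap, and Treh fell in the Hyper medium against ENR-organoids (-4.98 ± 0.25, adjusted p = 3.3e-06) and against -VE-organoids (-3.47 ± 0.25, adjusted p = 5.0e-05). The -VE- against ENR-organoid value was -1.50 ± 0.24 (adjusted p = 0.011). This last call was lost without -VE replicate 1 (-1.45, adjusted p = 0.066), -VE replicate 2 (-1.57, adjusted p = 0.085) or ENR replicate 2 (-1.40, adjusted p = 0.056).

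Mgam encodes maltase-glucoamylase, which completes starch digestion. It was at 130, 123 and 99.1 CPM in ENR-organoids, 89.6 and 71.3 CPM in -VE-organoids and 55.5, 44.9 and 38.0 CPM in Hyper-organoids. The 3 groups were in this order without overlap, and the log2 fold change of Hyper- against ENR-organoids was -1.47 ± 0.15 (adjusted p = 9.7e-05). Against -VE-organoids it was -0.94 ± 0.16 (adjusted p = 0.0024), under the 2-fold threshold. Lct, which encodes the lactase of the suckling gut, was near the limit of detection, with at most 0.651 CPM in an ENR-organoid library, at most 0.386 CPM in a -VE-organoid library and at most 0.190 CPM in a Hyper-organoid library. Its groups overlapped and no comparison passed the threshold (-1.64 ± 0.65 for Hyper- against ENR-organoids, adjusted p = 0.061). Lct was called when ENR replicate 3 was left out (-1.94, adjusted p = 0.042), and also without -VE replicate 1 (adjusted p = 0.0496) or -VE replicate 2 (adjusted p = 0.0487) and, with all libraries, in the DESeq2 Wald test (-1.63, adjusted p = 0.0495).

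Alpi encodes intestinal alkaline phosphatase and varied widely within groups. Its level was 30.0, 37.1 and 44.6 CPM in ENR-organoids, 19.4 and 77.2 CPM in -VE-organoids and 1.78, 17.8 and 8.16 CPM in Hyper-organoids. Hyper-organoids were below both other groups, which overlapped. The log2 fold change against ENR-organoids was -2.14 ± 0.76 (adjusted p = 0.040), but the call was lost without ENR replicate 1 (-2.29, adjusted p = 0.062), ENR replicate 2 (-2.15, adjusted p = 0.079), ENR replicate 3 (-1.95, adjusted p = 0.096) or Hyper replicate 3 (-2.06, adjusted p = 0.10), and with library totals alone (-2.01, adjusted p = 0.053). Without Hyper replicate 2 it was -3.06. Against -VE-organoids the value was -2.52 ± 0.81 (adjusted p = 0.033), and -1.19 (adjusted p = 0.36) without -VE replicate 2. That call was also lost without ENR replicate 1 (adjusted p = 0.051), ENR replicate 2 (adjusted p = 0.052), ENR replicate 3 (adjusted p = 0.05002) or Hyper replicate 3 (adjusted p = 0.085), and the value was -3.17 without -VE replicate 1 and -3.44 without Hyper replicate 2.

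The peptidases did not move together. Anpep encodes aminopeptidase N, which trims amino acids from the start of peptides. It was at 33.4, 39.3 and 29.4 CPM in ENR-organoids, at 29.7 and 15.3 CPM in -VE-organoids and at 63.2, 84.9 and 52.1 CPM in Hyper-organoids. Every Hyper-organoid library was above every other organoid library. Anpep rose against -VE-organoids (1.43 ± 0.30, adjusted p = 0.0054), whereas against ENR-organoids the value of 0.84 ± 0.26 (adjusted p = 0.022) was under 2-fold.

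Mep1a and Mep1b encode the 2 subunits of meprin, a metalloprotease of the brush border. Mep1a was at 8.51, 9.45 and 6.17 CPM in ENR-organoids, 5.41 and 3.73 CPM in -VE-organoids and 15.9, 13.0 and 12.7 CPM in Hyper-organoids, with no overlap of the groups. It rose against -VE-organoids (1.47 ± 0.22, adjusted p = 0.0011), and against ENR-organoids the value was 0.66 ± 0.18 (adjusted p = 0.015). Mep1b was at 15.7, 18.8 and 16.4 CPM in ENR-organoids, 5.39 and 4.72 CPM in -VE-organoids and 5.21, 6.20 and 9.05 CPM in Hyper-organoids. It was lower in both other media than in ENR-organoids (Hyper, -1.44 ± 0.20, adjusted p = 4.0e-04; -VE, -1.74 ± 0.23, adjusted p = 0.0064), and the Hyper- and -VE-organoid libraries overlapped. Without -VE replicate 2 the latter value was -1.65 (adjusted p = 0.067).

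Dpp4 encodes dipeptidyl peptidase 4, which removes dipeptides and also inactivates incretin hormones. It differed by less than 2-fold in each comparison of all kept cells, with 37.9, 34.7 and 26.8 CPM in ENR-organoids, 43.7 and 41.8 CPM in -VE-organoids and 53.7, 48.1 and 40.4 CPM in Hyper-organoids. ENR-organoid libraries were the lowest, but the log2 fold change of 0.39 ± 0.13 (Hyper against ENR, adjusted p = 0.027) was under 2-fold. In the other comparisons, 3 members were called lower (Sis, Treh and Alpi) and 2 higher (Anpep and Mep1a) in Hyper- against -VE-organoids, where 2.51% and 16.1% of genes were called, and 3 were called lower (Sis, Treh and Mep1b) and none higher in -VE- against ENR-organoids, where 1.2% and 1.35% were.

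**Figure D1:**
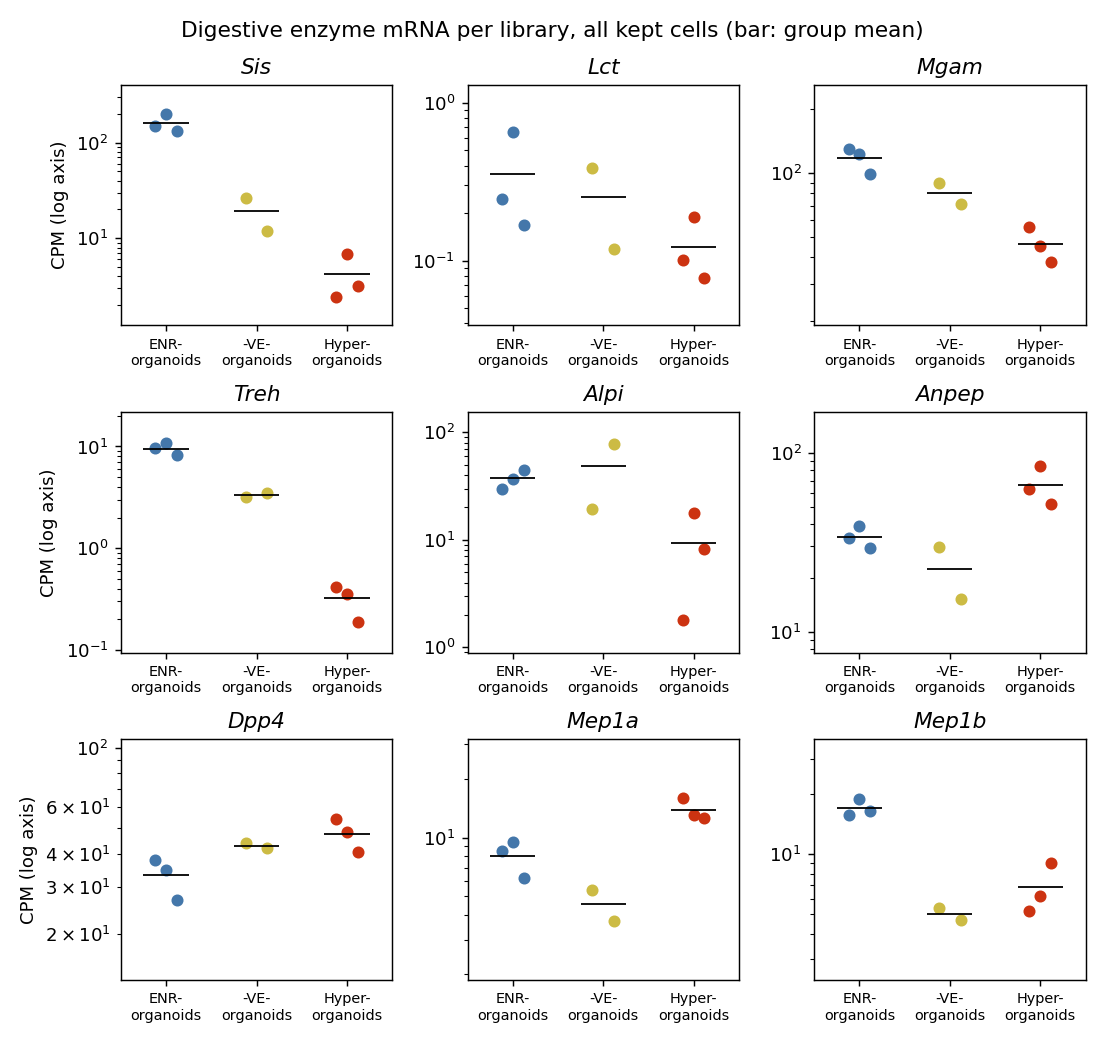
CPM of each of the 9 enzymes over all kept cells of a library (points, log axis with its own range in each panel) in ENR-organoids (3 libraries), -VE-organoids (2) and Hyper-organoids (3), with the group mean as a bar. Sis, Mgam and Treh descend from ENR- through -VE- to Hyper-organoids without overlap, whereas the Hyper-organoid libraries are the highest for Anpep and Mep1a.

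The level of each enzyme in each class of ENR-organoids is given as a description, since these genes may have entered the clustering. Sis was highest in EC (1376 CPM ± 297, SD, n = 3), followed by EE cells (348 ± 60.7), EP (59.4 ± 9.87) and goblet cells (29.9 ± 16.8), and the lowest levels, in Paneth (13.7 ± 12.3), TA (10.5 ± 2.60) and stem cells (7.55 ± 1.33), did not differ beyond their spread. EC were also the highest class for Mgam, Treh, Alpi, Anpep, Mep1a and Mep1b. Alpi was at 262 CPM ± 37.0 in EC and 29.1 CPM ± 2.76 in EP, and every other class was under 7 CPM in each library.

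Mgam was measured in every class. It was at 221 CPM ± 33.3 in EC, and its levels in stem (118 ± 19.0), TA (111 ± 15.8) and EP cells (102 ± 13.1) overlapped, with the lowest level in Paneth cells (39.0 ± 2.42). Dpp4 was highest in EE cells (91.6 CPM ± 20.8) rather than in EC (48.5 ± 9.93). In Hyper-organoids Anpep was at 109 CPM ± 38.1 (n = 2) in EC, and goblet (76.6 ± 12.5) and stem cells (73.7 ± 19.9) overlapped it, whereas EE (62.5 ± 16.3) and TA cells (60.2 ± 15.6) lay below.

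Next, the classes that held each enzyme's UMIs were counted. In ENR-organoids EC held 81.8% ± 2.58 (SD, n = 3) of Sis, 67.6% ± 5.01 of Alpi, 61.5% ± 4.55 of Treh and 51.3% ± 6.42 of Anpep UMIs. Mgam was spread differently, with 18.1% ± 3.03 in EC and 41.2% ± 5.40 in TA cells. In Hyper-organoids EC held 1.71% ± 1.04 of Anpep UMIs, and TA and stem cells held 48.6% ± 4.51 and 41.3% ± 1.61. EC still held 54.2% ± 21.5 of Alpi UMIs there, from 86 cells in all 3 libraries.

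Outside EC, the Sis UMIs of ENR-organoids were held by EP (11.3% ± 2.48), TA (2.89% ± 0.835) and enteroendocrine cells. EE cells, which secrete hormones, held 2.65% ± 0.744 of Sis UMIs in ENR-organoids, 11.7% ± 1.54 (n = 2) in -VE-organoids and 49.4% ± 27.9 in Hyper-organoids, where EC held 40.9% ± 26.6. The Sis level in EE cells was 395, 368 and 279 CPM in ENR-organoids, 199 and 128 CPM in -VE-organoids and 57.6, 109 and 121 CPM in Hyper-organoids. All 3 ENR-organoid libraries were above the rest, and every Hyper-organoid library was below every -VE-organoid library. Sis fell in EE cells from ENR- to Hyper-organoids (-1.80 ± 0.24, adjusted p = 7.2e-04, where 1.44% of 11050 genes were called lower). No member was called in EE cells of Hyper- against -VE-organoids (3.52% of genes higher and 0.489% lower) or of -VE- against ENR-organoids (0.118% and 0.0724%).

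Several measurements describe the Sis signal of EE cells, and its origin was not tested. Cells of this class had at most 228 CPM of the 4 enterocyte markers summed. In ENR-organoids this sum was 132 to 228 CPM in EE, 185 to 332 CPM in goblet, 98.4 to 130 CPM in TA and 62.2 to 81.2 CPM in stem cells. Alpi did not exceed 5.62 CPM in EE cells. In EC of ENR-organoids Alpi was at 238 to 304 CPM beside 1033 to 1561 CPM of Sis. Within EE cells with at least 10 UMIs of Chga and Chgb, Sis was at 375 to 426 CPM in ENR-organoids and at 86.5 to 158 CPM in Hyper-organoids. Shares of cells with a UMI were also taken after thinning to 10000 UMIs, which leaves out cells with fewer. Unthinned shares count every cell. After thinning, 63.6% to 74.2% of EE cells held Sis in ENR-organoids (68.9% to 80.6% unthinned), against 5.04% to 14.9% of goblet cells (19.2% to 27.9% unthinned). The median depth was 14295 to 18193 UMIs in EE and 24335 to 31837 UMIs in goblet cells. The summed enteroendocrine markers Chgb, Chga, Cck and Neurog3 were at 24189 to 38042 CPM in EE cells of ENR-organoids and at 7665 to 21723 CPM in those of Hyper-organoids, and the Paneth markers Ang4, Lyz1, Defa30 and Defa3 at 335 to 627 CPM in EE cells of ENR-, 2988 to 4228 CPM of -VE- and 841 to 5111 CPM of Hyper-organoids. The part of both lists in the lower Sis was not tested.

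**Figure D2:**
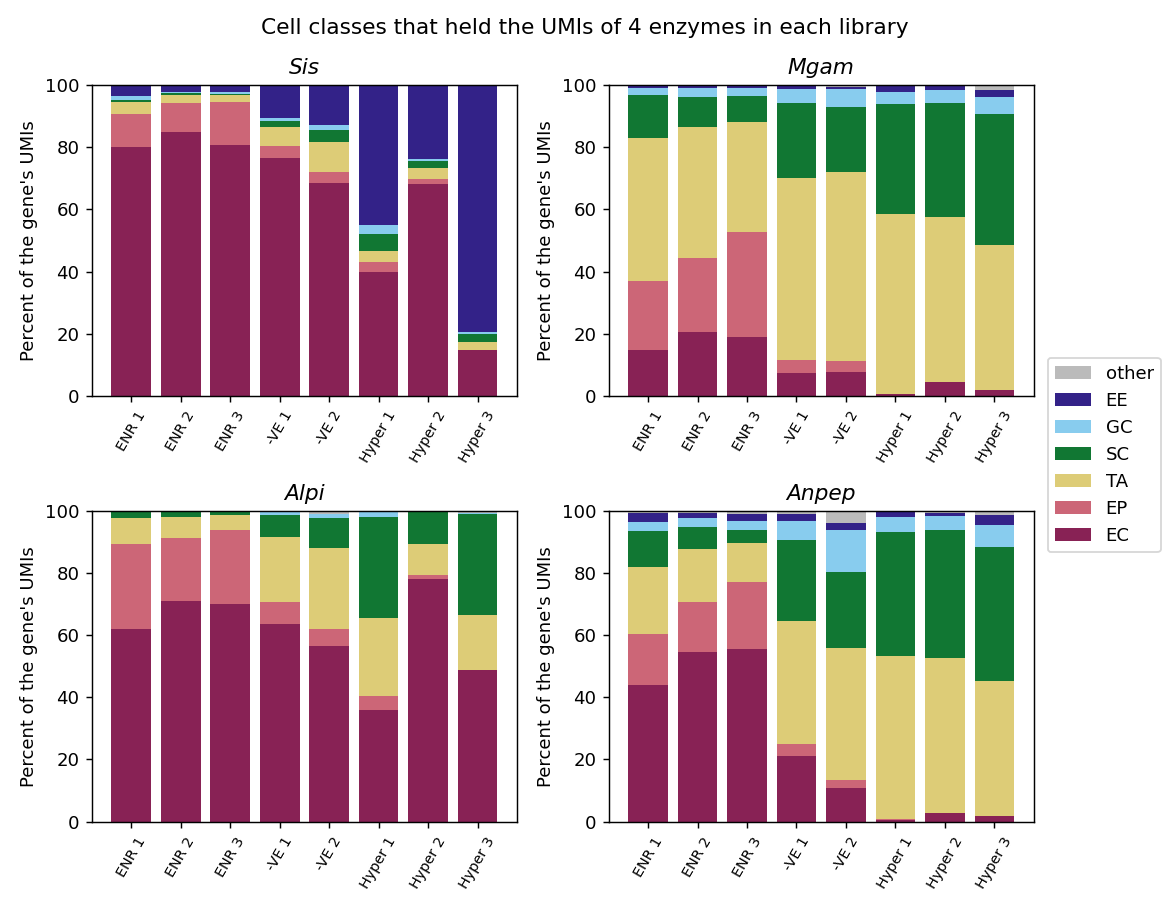
Share of the UMIs of Sis, Mgam, Alpi and Anpep (percent, stacked to 100) held by each deposited cell class in each organoid library. EC hold most Sis UMIs in ENR-organoids (81.8% on average), EE cells hold 49.4% on average in Hyper-organoids, and Anpep moves from EC to TA and stem cells.

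The difference between a Hyper- and an ENR-organoid library of the same culture series was then split into a term for the shares of UMIs that EC, EP and other cells made up and a term for the CPM within each. For Sis the mean difference was -156 ± 33.2 CPM (SD over 3 series), of which the share term made up -81.1 ± 25.3 CPM, or 52.0%. The level within EC made up -62.1 ± 16.6 CPM and that of other cells -12.6 ± 4.05 CPM. Each term was taken at the mean of the other factor in the paired libraries. Where share and level both fell, as for Sis and Treh in EC, the part common to both is divided equally between the terms. The similar size of the Sis terms for cell shares and for the level inside EC thus does not show which weighed more.

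The other enzymes differed widely in this split. Mep1b differed by -10.1 ± 2.64 CPM, and the share term of -10.4 ± 1.34 CPM was as large as the whole. For Alpi the share term (-48.9 ± 29.7 CPM) exceeded the difference (-28.0 ± 8.58 CPM), with a within-EC term of 12.7 ± 20.0 CPM of the opposite sign. For Treh the share term made up 39.8% of -9.22 ± 1.27 CPM.

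For Mgam, in contrast, it made up 9.92% of -71.1 ± 8.84 CPM, and cells outside EC and EP contributed -49.9 ± 8.76 CPM. Anpep had a share term of -13.1 ± 5.24 CPM, against 39.0 ± 11.9 CPM from cells outside EC and EP. Mep1a and Dpp4 likewise gained most outside the absorptive classes (5.68 ± 1.52 of 5.82 ± 2.03 CPM and 10.3 ± 1.78 of 14.3 ± 1.32 CPM). The levels of Hyper-organoids rest on 2 or 3 EP a library and, in series 2, on 7 EC, where the within-EC term of Sis was -49.3 CPM (-80.9 and -56.0 CPM in series 6 and C). With EC and EP joined, the share term of Sis was 65.4%, that of Treh 55.9%, that of Mgam 17.4% and that of Mep1b 227%.

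In the other comparisons the Sis split was different. Of the difference between -VE- and ENR-organoids (-156 ± 45.8 CPM, SD over 2 series) the share term made up 29.1% and the level within EC -91.2 ± 23.1 CPM. The difference between Hyper- and -VE-organoids was -14.4 ± 13.3 CPM with a share term of -13.8 ± 7.31 CPM. It was -23.8 CPM in series 2 and -4.99 CPM in series 6, with share terms of -19.0 and -8.68 CPM, and the terms for the levels within the cells were of opposite sign (-4.78 and 3.69 CPM).

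**Figure D3:**
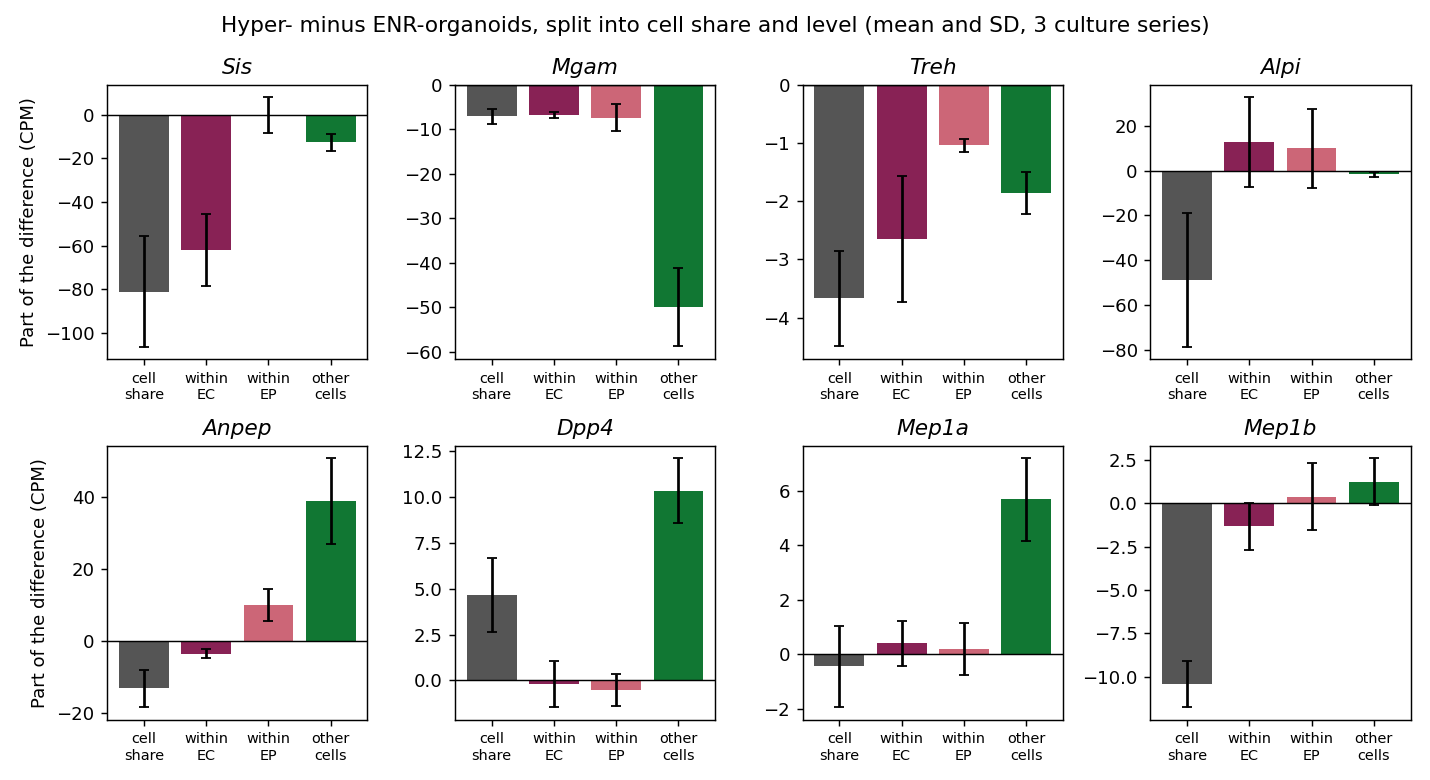
Hyper- minus ENR-organoid difference of 8 enzymes (CPM, bars from 0 with SD over 3 culture series, each panel with its own axis), split into the share of EC, EP and other cells, and the level within EC, EP and other cells. Cell share dominates for Mep1b and is about as large as the change within EC for Sis, whereas other cells dominate for Mgam, Anpep, Dpp4 and Mep1a.

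Within EC, the 3 disaccharidases above the detection limit were lower in Hyper- than in ENR-organoids, and neither Alpi nor a peptidase was called. Hyper-organoid replicate 1 had 7 EC and was left out of this fit. Of 11154 genes 3.08% were called lower and 7.78% higher, and 3 of the 9 members were called lower. Sis in EC was at 1534, 1561 and 1033 CPM in ENR-organoids, 384 and 174 CPM in -VE-organoids and 273 and 44.2 CPM in Hyper-organoid replicates 2 and 3 (317 CPM in the 7 cells of replicate 1). ENR-organoids were above all other libraries, and Hyper- and -VE-organoids overlapped. The log2 fold change of Hyper- against ENR-organoids was -3.08 ± 0.60 (adjusted p = 0.0057). It was -5.00 without Hyper replicate 2, -2.38 without Hyper replicate 3, -2.77 with replicate 1 added, and -3.52 (adjusted p = 0.051) in enterocytes defined by at least 3 UMIs of at least 3 of the 4 markers, of which Hyper replicate 3 had 16 cells with 8.19 CPM of Sis.

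Sis in EC was also lower in -VE- than in ENR-organoids (-2.35 ± 0.57, adjusted p = 0.034), and Hyper- against -VE-organoids gave -0.74 ± 0.59 (adjusted p = 0.44). In enterocytes defined by the markers, Hyper-organoids (8.19 to 297 CPM) lay below -VE-organoids (321 to 855 CPM) without overlap. The call between -VE- and ENR-organoids was lost without ENR replicate 1 (-2.31, adjusted p = 0.099), ENR replicate 2 (-2.25, adjusted p = 0.095), ENR replicate 3 (-2.50, adjusted p = 0.055) or -VE replicate 2 (-1.90, adjusted p = 0.22), was -3.09 without -VE replicate 1, and was not made in enterocytes defined by the markers (-1.51, adjusted p = 0.56). After thinning, 87.4% to 92.5% of EC held a Sis UMI in ENR-organoids (95.5% to 98.1% unthinned), 40.2% to 58.6% in -VE-organoids (57.4% to 77.2%) and 27.8% to 42.1% in Hyper-organoids (23.8% to 53.4%). In Hyper-organoid goblet cells, a class that should lack Sis, the thinned shares were 0.806% to 1.95%, at a median depth of 28376 to 36431 UMIs beside 42736 to 52853 UMIs in EC.

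Treh in EC was at 72.5, 66.9 and 46.7 CPM in ENR-organoids, 25 and 22.1 CPM in -VE-organoids and 6.97 and 1.03 CPM in Hyper-organoids. The groups did not overlap, and both steps were called, from ENR- to -VE-organoids (-1.45 ± 0.21, adjusted p = 0.0040) and from -VE- to Hyper-organoids (-2.16 ± 0.42, adjusted p = 0.0099). Hyper- against ENR-organoids gave -3.62 ± 0.37 (adjusted p = 2.0e-04). Without Hyper replicate 2 these Hyper values were -4.47 and -5.93. With the 7 EC of Hyper replicate 1 added, where Treh was at 32.9 CPM, the Hyper- against -VE-organoid call was lost (-1.41, adjusted p = 0.11), and Hyper- against ENR-organoids was -2.89 (adjusted p = 0.0017).

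Mgam in EC was at 246, 233 and 183 CPM in ENR-organoids, 128 and 116 CPM in -VE-organoids and 114 and 67.8 CPM in Hyper-organoids. ENR-organoids were the highest, and the Hyper- against ENR-organoid value was -1.27 ± 0.20 (adjusted p = 0.0016). For -VE- against ENR-organoids it was -0.92 ± 0.18 (adjusted p = 0.014), under 2-fold, and -1.06 (adjusted p = 0.0014) when culture series was blocked.

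Alpi in EC was at 238, 243 and 304 CPM in ENR-organoids, 237 and 936 CPM in -VE-organoids and 810 and 369 CPM in Hyper-organoids. Both Hyper-organoid libraries fitted were above all ENR-organoid libraries, whereas the 7 EC of Hyper replicate 1 were below them (209 CPM), and the log2 fold change of 1.13 ± 0.46 did not pass the threshold (adjusted p = 0.11). It passed without -VE replicate 1 (1.12) or -VE replicate 2 (1.12), which each leave 1 library of that medium, and with no filter on low counts (1.07). The unfiltered fit used the same libraries and Alpi counts and differed only in the genes let in. Its pass therefore does not reflect a smaller spread of Alpi between libraries. With Hyper replicate 1 added the log2 fold change was 0.80 (adjusted p = 0.27). In enterocytes defined by the markers the groups overlapped, with 232 to 329 CPM in ENR-organoids and 710 and 155 CPM in Hyper-organoids. The 2 highest libraries were both of culture series 6. Akp3, a neighbour of Alpi on chromosome 1 that encodes a related phosphatase, was at 0.750 to 13.5 CPM in EC.

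Among the peptidases, Mep1b in EC was at 137, 131 and 114 CPM in ENR-organoids, 49.6 and 47.0 CPM in -VE-organoids and 109 and 115 CPM in Hyper-organoids. The -VE-organoids stood below both other groups (-1.46 ± 0.11 against ENR-organoids, adjusted p = 3.7e-04; Hyper- against -VE-organoids 1.23 ± 0.12, adjusted p = 5.3e-04). Mep1a was at 32.3, 32.4 and 19.9 CPM in ENR-organoids, 12.4 and 6.94 CPM in -VE-organoids and 49.2 and 31.8 CPM in Hyper-organoids, with -VE-organoids again the lowest and the other groups overlapping. Its log2 fold change was -1.62 ± 0.28 (adjusted p = 0.0088) for -VE- against ENR- and 2.17 ± 0.34 (adjusted p = 0.0043) for Hyper- against -VE-organoids. The Mep1a calls were lost without -VE replicate 2 (-1.24, adjusted p = 0.083) and without Hyper replicate 2 (1.76, adjusted p = 0.082), respectively.

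These meprin values depended on how enterocytes were defined. In enterocytes defined by the markers, Mep1b was at 157, 140 and 138 CPM in ENR-organoids, 111 and 82.1 CPM in -VE-organoids and 99.8 and 73.8 CPM in Hyper-organoids, and no member was called between -VE- and ENR-organoids. Mep1a then overlapped between Hyper-organoids (15.4 and 42.8 CPM) and -VE-organoids (8.45 and 21.3 CPM). EC of -VE-organoids held about 9123 to 10985 CPM of the 4 enterocyte markers against 17449 to 19192 CPM in ENR-organoids, and the part of this in the -VE values was not tested.

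Anpep in EC was at 188, 198 and 159 CPM in ENR-organoids, 120 and 35.1 CPM in -VE-organoids and 136 and 82.2 CPM in Hyper-organoids. It was not called in any of the 3 comparisons of EC (Hyper against ENR, -0.73 ± 0.42, adjusted p = 0.25). The -VE- against ENR-organoid value of -1.28 ± 0.40 (adjusted p = 0.084) was called when culture series was blocked (-1.64, adjusted p = 0.023). Dpp4 in EC was lower in Hyper- than in ENR-organoids by less than 2-fold (-0.73 ± 0.21, adjusted p = 0.032), at 27.9 and 33.9 CPM against 56.8, 51.2 and 37.5 CPM. With Hyper replicate 1 added it was -0.37 (adjusted p = 0.42), and the groups overlapped in enterocytes defined by the markers. In EC, 4 members were called lower in -VE- than in ENR-organoids (Sis, Treh, Mep1a and Mep1b) and none higher, where 1.9% and 1.44% of genes were. In Hyper- against -VE-organoids 2 were called higher (Mep1a and Mep1b) and 1 lower (Treh), where 5.12% and 1.75% of genes were.

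In the sum of cells outside EC and EP, the same 3 disaccharidases were lower in Hyper- than in ENR-organoids, and Anpep was higher. Of 15759 genes 3.68% were called lower and 16.8% higher. Mgam in these cells was at 123, 111 and 90.8 CPM in ENR-organoids, 87.6 and 68.9 CPM in -VE-organoids and 55.4, 43.7 and 37.7 CPM in Hyper-organoids. The groups did not overlap, and the value of -1.35 ± 0.16 (adjusted p = 1.9e-04) was close to that in EC. Sis in these cells was at 20.9, 19.1 and 13.7 CPM, 5.69 and 3.65 CPM, and 1.41, 2.13 and 2.76 CPM. Its log2 fold change was -3.21 ± 0.28 (adjusted p = 4.9e-05), and that of Treh -3.47 ± 0.25 (adjusted p = 1.8e-05). The mix of cells behind the Sis value differed between the media. EE cells held 509 of 1352, 524 of 1446 and 272 of 629 of these Sis UMIs in ENR-organoids. In Hyper-organoids they held 153 of 194, 234 of 297 and 229 of 246.

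RNA carried over from enterocytes would also enter these levels and would follow the number of EC. The 4 enterocyte markers summed were at 104 to 128 CPM outside EC and EP in ENR-organoids and at 38.9, 96.8 and 183 CPM in Hyper-organoids, so that they overlapped. Of the 4, Apoa1 was lower without overlap like Sis (8.77 to 15.6 CPM in ENR- and 1.62 to 4.32 CPM in Hyper-organoids), whereas Fabp1 (52.1 to 74.3 and 22.9 to 120 CPM), Rbp2 (34.4 to 39.6 and 12.1 to 40.7 CPM) and Reg1 (3.72 to 4.83 and 2.33 to 20.4 CPM) overlapped. The EP markers Cfhr2, Rbp7, Dmbt1 and Pycard summed to 915 to 1044 CPM in these cells of ENR-, 675 to 851 CPM of -VE- and 294 to 427 CPM of Hyper-organoids, without overlap, as Mgam did. Stem markers (Lgr5, Ascl2, Olfm4 and Cd44) were at 1852 to 2747 CPM in ENR- and 266 to 897 CPM in Hyper-organoids. Goblet (1937 to 2808 and 652 to 1551 CPM) and Paneth markers (1258 to 1908 and 209 to 611 CPM) were also lower. So were enteroendocrine markers (459 to 764 and 157 to 347 CPM), whereas TA markers overlapped. The part of these lists in the enzyme values was not tested. After thinning, Sis was held by 4.39% to 9.18% of stem and 5.27% to 9.11% of TA cells in ENR-organoids (11.8% to 22.98% and 15.7% to 32.6% unthinned), shares that lay within or below those of goblet cells given above. The same held for -VE-organoids (1.61% to 2.58% of stem and TA cells, against 2.47% to 3.08% of goblet cells) and Hyper-organoids (at most 0.479%, against 0.806% to 1.95%). The median depth was 31294 to 40398 UMIs in stem and 45149 to 54458 UMIs in TA cells. Expression of Sis above this background share was thus not shown in stem and TA cells. Without cells that held the markers, Sis was at -3.08 and Treh at -3.44, but this leaves free RNA in place, and its part in the lower Sis, Treh and Alpi outside EC was not tested.

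Sis also fell outside EC and EP from ENR- to -VE-organoids (-1.91 ± 0.31, adjusted p = 0.021, with 0.444% of genes called lower and 0.514% higher). Of the members, only Sis was called in that comparison, and the call was lost without ENR replicate 1 (-1.80, adjusted p = 0.090), ENR replicate 2 (-1.86, adjusted p = 0.079) or -VE replicate 2 (-1.61, adjusted p = 0.19). Against -VE-organoids, Hyper-organoids were lower in Sis (-1.30 ± 0.30, adjusted p = 0.0074), Treh (-3.20 ± 0.26, adjusted p = 7.0e-05) and Alpi (-2.81 ± 0.68, adjusted p = 0.0096), and higher in Anpep and Mep1a, where 2.23% and 16.0% of genes were called. Without -VE replicate 1 the Sis call was lost (-0.94, adjusted p = 0.061) and Alpi was -3.55, and without -VE replicate 2, in which Alpi was at 32 CPM against 6.29 CPM in -VE replicate 1, the Alpi call was lost (-1.20, adjusted p = 0.17).

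Anpep outside EC and EP was at 19.8, 18.7 and 13.1 CPM in ENR-organoids, 24.6 and 14.4 CPM in -VE-organoids and 62.9, 84.0 and 51.7 CPM in Hyper-organoids. Hyper-organoids stood well apart, and ENR- and -VE-organoids overlapped. The log2 fold change was 1.83 ± 0.25 against ENR- (adjusted p = 4.4e-04) and 1.63 ± 0.28 against -VE-organoids (adjusted p = 0.0022). In TA cells Anpep was at 15.1, 14.6 and 9.86 CPM, 20.6 and 10.8 CPM, and 58.0, 76.7 and 45.7 CPM (2.07 ± 0.27 against ENR-organoids, adjusted p = 2.9e-04). After thinning, 9.02% to 12.9% of TA cells held an Anpep UMI in ENR-organoids, 9.09% to 18.5% in -VE-organoids and 33.5% to 49.8% in Hyper-organoids (28.2% to 38.6%, 29.0% to 54.8% and 72.8% to 88.4% unthinned, at median depths of 45149 to 59670 UMIs). In stem cells Anpep was called too (1.51 ± 0.29, adjusted p = 0.0022).

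Mep1a outside EC and EP was at 7.16, 7.00 and 5.18 CPM in ENR-organoids, 5.12 and 3.65 CPM in -VE-organoids and 15.9, 12.4 and 12.5 CPM in Hyper-organoids. The Hyper-organoid libraries were the highest, and Mep1a was called against -VE-organoids (2.82-fold, adjusted p = 5.7e-04). Against ENR-organoids the value of 0.96 ± 0.17 (adjusted p = 0.0017) was just under 2-fold, and it was between 1.02 and 1.07 with library totals alone or without ENR replicate 1, ENR replicate 2, Hyper replicate 2 or Hyper replicate 3. Dpp4 was at 29.2 to 39.1 CPM, 42.5 to 44.4 CPM and 40.5 to 53.7 CPM in the 3 groups, and its value of 0.35 ± 0.11 (adjusted p = 0.029) against ENR-organoids was small.

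The effect of the Hyper medium on Anpep differed between the cells. In a fit over EC and all cells outside EC and EP of the same libraries, the log2 effect in EC minus the effect outside was -2.90 ± 0.21 (adjusted p = 5.3e-07). By this test 4 of the 9 members differed (Alpi, Anpep, Dpp4 and Mep1b), among 13.1% of 14347 genes. Sis did not pass it (-0.39 ± 0.42, adjusted p = 0.63), but this rests on both Hyper-organoid EC libraries, since the value was -2.46 (adjusted p = 8.9e-06) without Hyper replicate 2 and 0.57 (adjusted p = 0.030) without Hyper replicate 3. The Sis level outside EC and EP was, in Hyper-organoids, mostly that of EE cells, as given above. Mgam (-0.01 ± 0.13) and Treh (-0.27 ± 0.50) did not pass either. In enterocytes defined by the markers, 24 of 14389 genes passed the same test between -VE- and ENR-organoids, and none of the 6 members named next did. Cells with the markers outside EC and EP entered both sides of that version. With EC as deposited, 6 of the 9 members differed between -VE- and ENR-organoids, among 6.09% of genes. Each had the lower effect in EC (Mgam, Treh, Anpep, Dpp4, Mep1a and Mep1b). Sis did not differ there (-0.55, adjusted p = 0.48) unless Hyper replicate 2 (adjusted p = 0.0063) or Hyper replicate 3 (adjusted p = 0.0056) was left out.

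**Figure D4:**
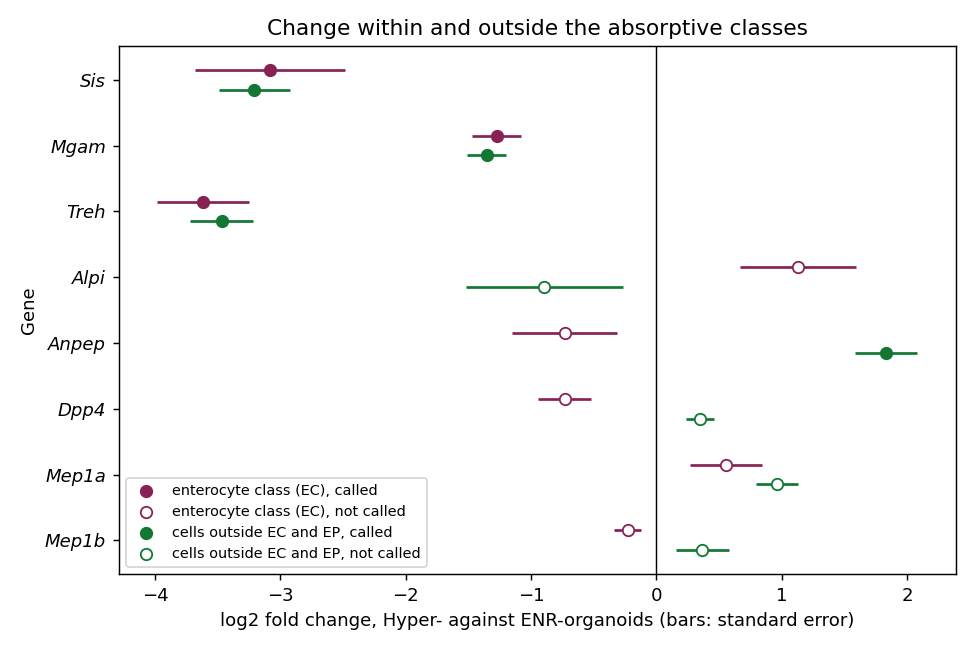
Log2 fold change of Hyper- against ENR-organoids (horizontal axis, bars are standard errors) for 8 enzymes within EC (purple, Hyper-organoid replicates 2 and 3) and in all cells outside EC and EP (green), with filled points for called genes. Sis, Mgam and Treh are called lower in both, and Anpep is called higher only outside EC and EP, where it is at 1.83 against -0.73 in EC.

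In the stem and TA classes alone, the calls of Hyper- against ENR-organoids were the same 4 genes, Sis, Mgam and Treh lower and Anpep higher (2.8% and 15.2% of genes in stem cells, 3.78% and 17.2% in TA cells). The stem and TA cells of Hyper- and ENR-organoids formed separate clusters in the study, which the deposited classes join, so that differences between groups are also differences between these clusters. The summed stem markers Lgr5, Ascl2, Olfm4 and Cd44 were at 3157 to 4560 CPM in stem cells of ENR-, 1958 to 2664 CPM in those of -VE- and 268 to 923 CPM in those of Hyper-organoids, and at 1784 to 2659, 1585 to 2293 and 283 to 952 CPM in TA cells. The EP markers summed to 785 to 951, 690 to 823 and 318 to 491 CPM in stem and 1013 to 1158, 715 to 933 and 287 to 407 CPM in TA cells. The part of both lists in the enzyme values was not tested. Mgam in stem cells was at 135, 120 and 97.7 CPM in ENR-organoids, 84.5 and 67.8 CPM in -VE-organoids and 54.5, 45.1 and 39.8 CPM in Hyper-organoids (-1.46 ± 0.14 for Hyper against ENR, adjusted p = 4.2e-05). Sis in stem cells was at 6.02 to 8.44 CPM in ENR-organoids and 0.220 to 0.443 CPM in Hyper-organoids (-4.51 ± 0.26, adjusted p = 3.0e-06), in shares of cells no higher than among goblet cells. In the same stem cells Apoa1 was at 4.06 to 13.1 CPM in ENR- and 1.90 to 3.72 CPM in Hyper-organoids, whereas Fabp1 was at 29.3 to 42.3 and 33.4 to 223 CPM. Alpi in TA cells gave -1.39 ± 0.62 (adjusted p = 0.086) and -1.60 (adjusted p = 0.013) when culture series was blocked.

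Against -VE-organoids, Hyper-organoid stem and TA cells were lower in Sis, Treh and Alpi and higher in Anpep and Mep1a (1.76% and 14.7% of genes in stem cells, 2.32% and 15.5% in TA cells). Mep1b was also called higher in stem cells (1.13 ± 0.28, adjusted p = 0.0097), but not when culture series was blocked (0.89, adjusted p = 0.0057, under 2-fold), without -VE replicate 2 (0.97, adjusted p = 0.094) or without Hyper replicate 3 (0.80). The Alpi value in stem cells was -2.26 ± 0.67 (adjusted p = 0.022), -3.06 without -VE replicate 1 and -0.41 (adjusted p = 0.67) without -VE replicate 2. In TA cells Alpi was -3.28 ± 0.66 (adjusted p = 0.0037), -4.00 without -VE replicate 1 and -1.77 (adjusted p = 0.049) without -VE replicate 2. The Sis values in TA cells were -5.42 ± 0.39 against ENR- and -3.28 ± 0.40 against -VE-organoids, and -6.17 and -4.05 without Hyper replicate 2.

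Between -VE- and ENR-organoids, only Sis was called in stem cells (-1.94 ± 0.26, adjusted p = 0.012), TA cells (-2.13 ± 0.35, adjusted p = 0.021) and EP (-1.72 ± 0.25, adjusted p = 0.016). In these classes 0.273%, 0.337% and 0.247% of genes were called lower and 0.23%, 0.694% and 0.206% higher. Sis in EP was at 61.8, 67.9 and 48.6 CPM in ENR-organoids and 24.7 and 11.5 CPM in -VE-organoids, without overlap. The shares of stem and TA cells with Sis were no higher than among goblet cells, as given above. The EP call was lost without -VE replicate 2 (-1.25, adjusted p = 0.092), and the value was -2.36 without -VE replicate 1. The stem call was lost without ENR replicate 1, ENR replicate 2 or -VE replicate 2 (-1.87, -1.86 and -1.88), and the TA call without any of ENR replicate 1, ENR replicate 2, -VE replicate 1 and -VE replicate 2 (-2.03, -2.0, -2.42 and -1.87). When culture series was blocked, Alpi was also called between -VE- and ENR-organoids, in stem cells (1.89, adjusted p = 0.042) and in EP (1.26, adjusted p = 0.049).

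Goblet cells, which secrete mucus, gave the largest log2 fold changes of Mep1a among the cell sets tested. Mep1a in this class was at 3.70, 3.72 and 3.50 CPM in ENR-organoids, 2.06 and 2.32 CPM in -VE-organoids and 20.2, 21.8 and 16.3 CPM in Hyper-organoids. The groups did not overlap, and the log2 fold change was 2.31 ± 0.20 against ENR- (adjusted p = 8.6e-06) and 3.08 ± 0.21 against -VE-organoids (adjusted p = 3.8e-06). In Hyper-organoids, Mep1a in EE (13.2 to 28.5 CPM) and stem cells (12.8 to 17.5 CPM) overlapped the goblet level, and TA cells (10.4 to 14.8 CPM) lay below it. In ENR-organoids EE (6.99 to 10.3 CPM), stem (4.71 to 10.2 CPM) and TA cells (5.40 to 7.28 CPM) lay above goblet cells. Anpep and Dpp4 were called higher as well against ENR-organoids (2.84-fold and 2.34-fold), and Sis (-5.08 ± 0.50) and Alpi (-2.73 ± 0.71) lower, with 10.7% and 2.64% of 11714 genes called. Without Hyper replicate 1 the Sis value was -5.83. Enterocyte markers were lower in the same goblet cells, with 185 to 332 CPM of the 4 summed in ENR-, 108 to 109 CPM in -VE- and 21.6 to 45.2 CPM in Hyper-organoids, and Apoa1 at 46.9 to 60.5, 23.4 to 25.8 and 4.01 to 8.64 CPM. The goblet markers Agr2, Tff3, Muc2 and Fcgbp summed to 23050 to 31450, 15996 to 20225 and 9658 to 19367 CPM in the 3 groups, and the 4 enteroendocrine markers to 24.1 to 32.4, 31.5 to 40.4 and 93.2 to 133 CPM. The 4 Paneth markers summed to 3386 to 3933, 8828 to 12850 and 3518 to 7832 CPM. The part of these markers in the goblet values was not tested.

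Against -VE-organoids, Anpep and Mep1a were called higher and Alpi lower in goblet cells (8.72% and 1.15% of genes), and Sis lower only when culture series was blocked (-1.77, adjusted p = 0.0066). Alpi there was -3.87 ± 0.62, and -2.77 without -VE replicate 2. Between -VE- and ENR-organoids, Sis was called lower (-3.23 ± 0.45, adjusted p = 0.0058; without -VE replicate 2, -2.94, adjusted p = 0.12) and Dpp4 higher (1.05 ± 0.15, adjusted p = 0.0066), with 0.606% and 0.529% of genes called. Dpp4 was then just under 2-fold with the block (1.00, adjusted p = 0.0080) and without -VE replicate 1 (1.00), ENR replicate 1 (0.95) or ENR replicate 3 (0.95), and the call was lost without -VE replicate 2 (1.09, adjusted p = 0.078).

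In EE cells, Dpp4 was at 116, 80.2 and 79.1 CPM in ENR-organoids, 112 and 76.8 CPM in -VE-organoids and 122, 141 and 145 CPM in Hyper-organoids. The Hyper-organoid libraries were the highest, but the value against ENR-organoids was under 2-fold (0.65 ± 0.17, adjusted p = 0.026). Beside Sis, Mep1b was called in EE cells, higher in Hyper- than in ENR-organoids (2.59 ± 0.75, adjusted p = 0.038, where 5.96% of genes were). It was at 0.777 to 2.11 CPM and 4.52 to 13.7 CPM in the 2 groups, and the call was lost without ENR replicate 1 (2.28, adjusted p = 0.14), ENR replicate 2 (3.15, adjusted p = 0.074) or ENR replicate 3 (2.51, adjusted p = 0.096).

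Other genes of the same membrane and its control were read from 4 lists, members removed. Of 10 further hydrolases tested in all kept cells, 3 fell in Hyper- against ENR-organoids and none rose, where 4.75% and 18.2% of all genes did. They were Ggt1 (-4.62), which breaks down glutathione, and the peptidases Enpep (-4.37) and Mme (-2.57). The list's median was -0.78. Within EC 5 fell and 1 rose of 9 (3.08% and 7.78% of all genes), among them Ace (-3.30), Mme (-2.47) and Ggt1 (-2.0) lower and Akp3 (3.28) higher. Outside EC and EP 4 fell and 1 rose of 10 (3.68% and 16.8% of all genes), with Ace (1.62) higher and Ggt1 (-2.83), Enpep (-2.49) and Enpp3 (-1.14) lower.

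Of 16 structural genes of the microvillus, 3 fell in all kept cells, namely Pdzk1 (-3.37), a membrane scaffold, and the myosins Myo1a (-1.46) and Myo1d (-1.16), and Espn (2.79), which bundles actin, rose, beside 4.75% and 18.2% of all genes. In EC Espn rose (1.83) and Cobl (-1.27), an actin nucleator, fell, beside 7.78% and 3.08% of all genes. Their medians were -0.29 and 0.21.

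Of 14 regulators of the enterocyte programme, Isx (-2.97), Creb3l3 (-2.10) and Hnf4g (-1.32) were among 4 that fell in all kept cells, and Prdm1 (1.31) rose, where 4.75% and 18.2% of all genes did. Prdm1 encodes Blimp-1, a repressor known from the suckling gut. In EC only Prdm1 was called (1.68 ± 0.40, adjusted p = 0.014), where 7.78% of all genes were called higher and 3.08% lower. Cdx1 was the remaining regulator that fell in all kept cells (just over 2-fold, adjusted p = 1.6e-05). Of the families whose motifs are shown above, Hnf4a, Cdx2 and Gata4 were looked up after their values were known and were not called in EC, where the log2 fold change was -0.03 for Hnf4a, 0.48 for Cdx2 and -0.09 for Gata4.

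The last list held genes that change between suckling and weaning, of which 5 other than members were tested, Prdm1 among them again. In EC of Hyper- against ENR-organoids, 4 rose and 1 fell, where 7.78% and 3.08% of all genes did, and the list was chosen with earlier results known. Ass1 (4.08 ± 0.27, adjusted p = 2.7e-05), an enzyme of arginine synthesis, Prdm1 (1.68) and Fcgrt (1.55), the receptor that takes up maternal antibody, rose, and Arg2 (-2.51), an arginase, fell. Ass1 and Prdm1 were also called higher in cells outside EC and EP, where 16.8% of all genes were. In stem cells Ass1, Prdm1 and also Arg2 were called higher, where 15.2% of all genes were. The members Sis and Treh, whose mRNAs normally appear at weaning, are in the same list and were lower, as given above, while Lct showed no detectable difference in EC (at most 5.03 CPM in any library).

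Over 50 sums of a class in a library with at least 20 cells, the members followed their own mean to different degrees. Pearson's r of log2(CPM + 1) to that mean was highest for Lct (0.830) and lowest for Dpp4 (0.300). Each member is itself part of the mean, which raises its r, and Lct was near the limit of detection. The closest pair was Mgam and Treh (0.820), followed by Treh and Alpi (0.808), and Anpep was closest to Mep1a (0.673). Of 23105 other genes, Slc2a2 (0.952), a glucose transporter, Cyp2j6 (0.951), 1500035N22Rik (0.940), Slc51b (0.936), a bile acid transporter, Ifit1bl2 (0.934), Gstm4 (0.931), 2010106E10Rik (0.928) and Hkdc1 (0.926) followed the mean most closely. The sums share libraries and classes, so these values are descriptions.

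The colonic crypts had a different set of these enzymes. There was 1 library per condition, so no test was made, and intervals are exact Poisson 95% intervals that cover counting error only. Meprin was the most counted, with Mep1a at 133 CPM (128 to 138) in normal and 110 CPM (106 to 114) in DSS crypts and Mep1b at 55.7 CPM (52.4 to 59.0) and 44.8 CPM (42.5 to 47.1). Both were thus lower in the DSS library, with log2 ratios of -0.27 and -0.31 (pseudocount of 1 CPM), and the intervals were apart.

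Mgam and Alpi were higher in the DSS library. Mgam was at 42.1 CPM (39.3 to 45.1) in normal and 59.0 CPM (56.4 to 61.8) in DSS crypts, a log2 ratio of 0.48. Alpi was at 13.3 CPM (11.7 to 15) and 18.1 CPM (16.7 to 19.6), a log2 ratio of 0.42. For Dpp4 the intervals overlapped, at 17.0 CPM (15.2 to 18.9) and 15.9 CPM (14.5 to 17.3).

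Sis, Anpep, Treh and Lct were nearly absent from the colon. Sis gave 21 and 47 UMIs in the normal and DSS libraries (1.05 and 1.45 CPM), Anpep 18 and 34 UMIs (0.904 and 1.05 CPM) and Treh 3 and 15 UMIs. Their intervals overlapped between the libraries. Lct gave 0 UMIs in both, with upper interval bounds of 0.185 and 0.114 CPM. The colonocyte markers Car1, Aqp8, Slc26a3 and Car4 were higher in both colon libraries than in every organoid library, with Car1 at 6054 and 4933 CPM against 0 to 2 UMIs. Of the 5 markers of the small intestine, Gata4, Apoa4 and Apob were lower in the colon, whereas Rbp2 overlapped (11.3 and 33.3 CPM, against 15.6 to 556 CPM in organoids) and Fabp2 was higher in the normal colon (1536 CPM) than in any organoid library (143 to 694 CPM), with 586 CPM in the DSS library.

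**Figure D5:**
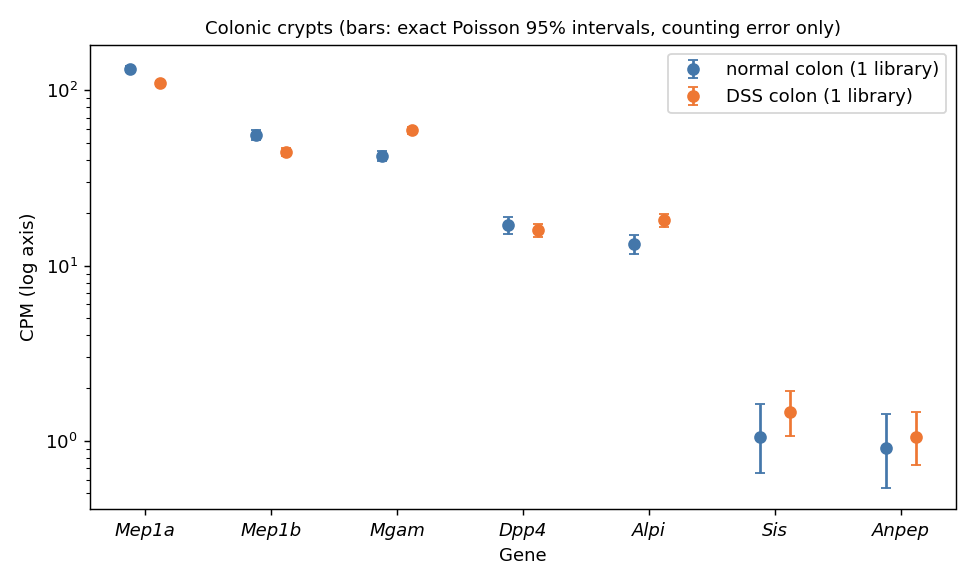
CPM (log axis) of the 7 enzymes with at least 10 UMIs in the normal (blue) and the DSS (orange) colonic crypt library, 1 library each, with exact Poisson 95% intervals. Mep1a and Mep1b are lower and Mgam and Alpi higher in the DSS library with intervals apart, and Dpp4, Sis and Anpep overlap.

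The deposited colonic clusters, numbered here as in the annotation, differed between the libraries. Mep1a in cluster 6 was at 306 CPM in the normal and 341 CPM in the DSS library, and in cluster 1 at 190 and 219 CPM, so neither was lower in the DSS library as the whole library was. Cluster 3 alone held 45.8% of Mep1a and 66.2% of Mep1b UMIs in the normal library, from 274 of 1132 cells, and had 1 cell of the DSS library. Cluster 6 held 25.8% of Alpi UMIs in the normal library (45.8 CPM, 64 cells) and 51.8% in the DSS library (90.4 CPM, 157 cells). In cluster 2, which the annotation calls stem, Mgam was at 49.6 CPM in 102 normal and 110 CPM in 168 DSS cells. The 6 of 25 clusters in which over 50% of cells held a Ptprc UMI, a leukocyte gene, made up 219 of 1132 normal and 445 of 1933 DSS cells. They held under 1% of the UMIs of Sis, Mgam, Treh, Alpi, Mep1a and Mep1b, but 7.69% and 9.34% of Dpp4 and 16.7% and 26.5% of Anpep UMIs.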

How the data were processed

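Mouse crypts and organoids were profiled by 10x single-cell RNA-seq. UMI counts per gene and cell were made by the authors with Cell Ranger (version 3.0.0 in the methods) on mm10, and the kept cells and their classes came from Seurat 3.1.4. These deposited counts were used unchanged. The stated minimum of 1500 genes a cell was not met by all deposited cells (minimum 501), and doublets were not removed. Members and gene lists were chosen with earlier results of these data known, and 3 genes of these lists are not reported here.

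Counts were summed per library and class (at least 10 cells) and tested over all genes with edgeR 4.0.16 (R 4.3.3; filterByExpr, TMM factors, quasi-likelihood test, Benjamini-Hochberg adjustment), the groups sharing 1 estimate of the spread. CPM values use plain library totals. Enteroendocrine and goblet fits, the test of the difference between cell sets, the fit with 7 enterocytes and the scaling by totals alone were added after the data were seen. All 9 members were named, with up to 4 called genes per list by absolute fold change, the 8 genes closest to the members' mean and colon members with at least 10 UMIs. The edgeR fit and the test of the difference between cell sets were tried on simulated counts.

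Replicate numbers stand for culture series. Over 16037 genes the deviations of same-numbered ENR- and Hyper-organoid libraries correlated at 0.192, 0.170 and 0.436, against -0.292 to 0.129 for other pairs, so a fit with culture series as a replicate block was run as an alternative. Others were DESeq2 1.42.0, other size factors, no count filter, leaving out each library, cells with at least 1500 genes, cells outside the top 5% of UMIs and enterocytes defined by markers.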

Additional observations from a re-analysis of the deposited data

Results flagged for a closer look

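The effect of a medium differed between enterocytes and cells outside EC and EP for several members. The values are the log2 effect in EC minus that outside, from the same edgeR fit over both sets of sums. For Hyper- against ENR-organoids it was 1.36 ± 0.25 for Alpi (adjusted p = 0.0018), -2.90 ± 0.21 for Anpep (adjusted p = 5.3e-07), -1.27 ± 0.16 for Dpp4 (adjusted p = 7.6e-05) and -0.82 ± 0.17 for Mep1b (adjusted p = 0.0047). The Alpi value was 0.60 (adjusted p = 0.033) without Hyper replicate 2 and 0.68 (adjusted p = 0.54) in enterocytes defined by markers.

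For -VE- against ENR-organoids it was -0.50 ± 0.11 for Mgam (adjusted p = 0.012), -1.23 ± 0.19 for Treh (adjusted p = 0.0011), -1.69 ± 0.19 for Anpep (adjusted p = 9.2e-05), -0.72 ± 0.11 for Dpp4 (adjusted p = 0.0012), -1.12 ± 0.20 for Mep1a (adjusted p = 0.0024) and -0.92 ± 0.17 for Mep1b (adjusted p = 0.0031). In enterocytes defined by markers these 6 values were -0.25, -0.78, -1.17, -0.60, -0.62 and -0.09, and none passed the threshold, which 24 of 14389 genes did. Marker-defined enterocytes were taken from all classes, and those outside EC and EP also stayed in the sum they were set against. The Mgam value did not pass without -VE replicate 1 (-0.41, adjusted p = 0.052) or ENR replicate 2 (-0.46, adjusted p = 0.074).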

How the results depend on the processing

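The number of members called stayed within 1.5 times the reported one in 141 alternatives that kept all libraries and moved further in 9. With enterocytes defined by markers it was 1 for Hyper- against -VE- and 0 for -VE- against ENR-organoids (by the edgeR test, none). With culture series as a replicate block it was 2 in stem cells, 2 in EP and 1 in goblet cells (-VE- against ENR-organoids), and the block changed no other count beyond this range. With no count filter it was 2 in stem cells and 3 in EP (-VE against ENR), and 1 in EE and 5 in goblet cells (Hyper against -VE). Leaving out 1 library gave, for -VE- against ENR-organoids, between 0 and 3 over all cells, 2 and 7 in EC, 0 and 1 outside EC and EP, in stem and in TA cells, 0 and 2 in EP and in goblet cells, and 1 to 3 in EE cells of Hyper- against ENR-organoids. All these counts stand without the share of all genes called under the same setting. A changed count therefore describes the fit and is not a result about the members. With enterocytes defined by markers, Mep1a of Hyper- against ENR-organoids (-0.045) and Mep1b of Hyper- against -VE-organoids (-0.25) reversed. With EC and EP joined, the cell share term was 65.4% for Sis, 17.4% for Mgam, 55.9% for Treh, 12.5% for Dpp4, -73.9% for Mep1a and 227% for Mep1b. It was 8.36% for Mgam with all classes apart, and 13.2% for Mgam and 123% for Mep1b with cell shares and UMIs per cell. The colonic Treh log2 ratio was 1.17 with a pseudocount of 0.1 CPM. The causes were not tested. The EC fits rest on 58 and 21 Hyper-organoid cells, the -VE-organoid comparisons on 2 libraries of that medium, and the colon on 1 library per condition.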
